A study of Mus musculus with 27 samples.

Results

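Runx1, Tal1, Lyl1, Lmo2, Gata1, Gata2, Gfi1, Gfi1b, Cbfa2t3 and Myb encode the core transcription factors and cofactors of blood formation, and their RNA was followed here through the in vitro course from hemangioblast to blood cell with and without AP-1 activity. The genes were chosen by name. Their probes were found through the RefSeq accession that the scanner files give for each spot, which yielded 13 probes among the 26582 that carried a gene symbol. The brightest probe of each gene was used, so that the genes made up 10 of 37208 genes or transcripts on the array, 20145 of them with a symbol. All 10 probes were well above background on all 27 arrays, so no value below is a bound unless it is called one.

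The cells were mouse embryonic stem cells (ESCs) of the A2lox line, into which a Flag-tagged dominant-negative FOS (dnFOS) had been placed at the Hprt locus under control of doxycycline (DOX). dnFOS binds JUN proteins and keeps AP-1, the family of FOS and JUN dimers, off DNA. All 27 arrays, the untreated ones included, came from cells with this cassette, and DOX given to cells without it was not measured on them. The sources used here do not state how many clones served for the arrays, and the ESCs had been grown on feeder cells before differentiation. FLK1+ cells, the hemangioblast population, were purified from embryoid bodies and measured untreated on 2 arrays. They were then kept in blast culture without DOX or with 1 µg/ml DOX, and RNA was taken from the complete culture after 5 h (FLK1+ 5h) and after 1 day (d1 BC). After 2 days the smooth muscle (SM), early hemogenic endothelium (HE1, KIT+TIE2+CD41-), late hemogenic endothelium (HE2, KIT+TIE2+CD41+) and hematopoietic progenitor (HP, KIT+TIE2-CD41+) cells were sorted, and DOX had been present for the 2 days. Untreated SM cells were measured on 3 arrays, and every other of the 13 groups on 2. Nothing states that replicates were separate differentiations, so the p-values measure only the spread between these arrays.

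RUNX1 binds DNA together with CBFB and is known as the factor without which hemogenic endothelium does not give rise to blood. TAL1 and LYL1 are basic helix-loop-helix factors that, bridged by LMO2 and LDB1 to a GATA factor, form a complex at genes of blood stem and progenitor cells, and CBFA2T3 (ETO2) is a corepressor of the same complex. GATA2 is the GATA factor of early progenitors and GATA1 that of red cells and megakaryocytes. GFI1 and GFI1B are zinc finger repressors that act after RUNX1 to silence endothelial genes, and MYB is needed for definitive progenitors.

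The level given throughout is the log2 signal of a probe minus the 75th percentile of its array, and a difference is that of 2 such levels. Because a probe's brightness depends on its sequence, levels are compared between populations for one gene and not between genes. A limma model with a mean for each of the 13 groups was fitted to all 27 arrays. A difference was called when limma's Benjamini-Hochberg adjusted p, taken over all genes tested, was under 0.05 and the change was at least 2-fold. The 75th percentile ranged over the arrays from 73.2, on untreated HE2 replicate 1, to 639. The share of probes well above background ranged from 47.0% to 89.6%, and replicate arrays correlated across genes with r from 0.911 to 0.969. The arrays lay on 5 slides. Hprt, which sits at the locus of the cassette, was higher on every DOX array than on every untreated array in each of the 6 populations, with differences from 1.41 at FLK1+ 5h to 3.63 in d1 BC.

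Replicate 2 of SM cells stood apart with and without DOX, and it touches every comparison with that population. Cdh5, the cadherin of endothelial junctions, was at 4.34 on untreated and 4.74 on DOX replicate 2, against -1.12 and -0.41 on the other untreated SM arrays and -1.39 on the other DOX array. In HE1 cells the same probe read between 5.09 and 6.68. The summed level of the 10 endothelial markers was 98.5 and 120 times the 75th percentile on the replicate 2 arrays, against 11.3 to 16.3 on the other SM arrays and 120 to 273 in HE1 cells. Smooth muscle genes were high on every SM array, with Acta2 between 8.93 and 9.84. Hba-x, an embryonic globin, was at 5.64, 6.29 and 4.67 on the SM arrays other than replicate 2, and at 1.60 and 0.46 on the replicate 2 arrays. The summed level of the 8 erythroid markers was 177 to 431 on the former and 54.8 and 62.8 on the latter. Of the genes of the sort markers, untreated Kit was between 3.47 and 4.89 in HE1, HE2 and HP cells and between -1.38 and 0.64 in SM cells. Itga2b, which encodes CD41, was at 1.33 and 0.87 on the untreated HE1 arrays and at 2.64 and 3.77 in untreated HE2 cells. Single DOX arrays went against their gate at the RNA level. Itga2b was at 0.05 on HE2 DOX replicate 2 and at 0.43 on HP DOX replicate 1, both below the untreated HE1 arrays, and Tek, which encodes TIE2, was at -0.75 on HE2 DOX replicate 2 and at 0.20 on HE1 DOX replicate 2. DOX values without these arrays are given with those populations. The 6 pluripotency markers were lower on the SM replicate 2 arrays as well, with summed levels of 1.97 and 0.862 against 12.4 to 23.2 on the other SM arrays. The median of 7 feeder fibroblast markers was 0.51 and 1.06 against 2.51 to 3.96, while their sums overlapped, at 157 and 77.4 against 104 to 198. Untreated SM replicate 2 was also the array with 89.6% of probes well above background, beside 55.8% to 65.5% on the other SM arrays. The part of these markers and of this share in the results for SM cells was not tested, and values without both replicate 2 arrays are given beside those results.

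**Figure D1:**
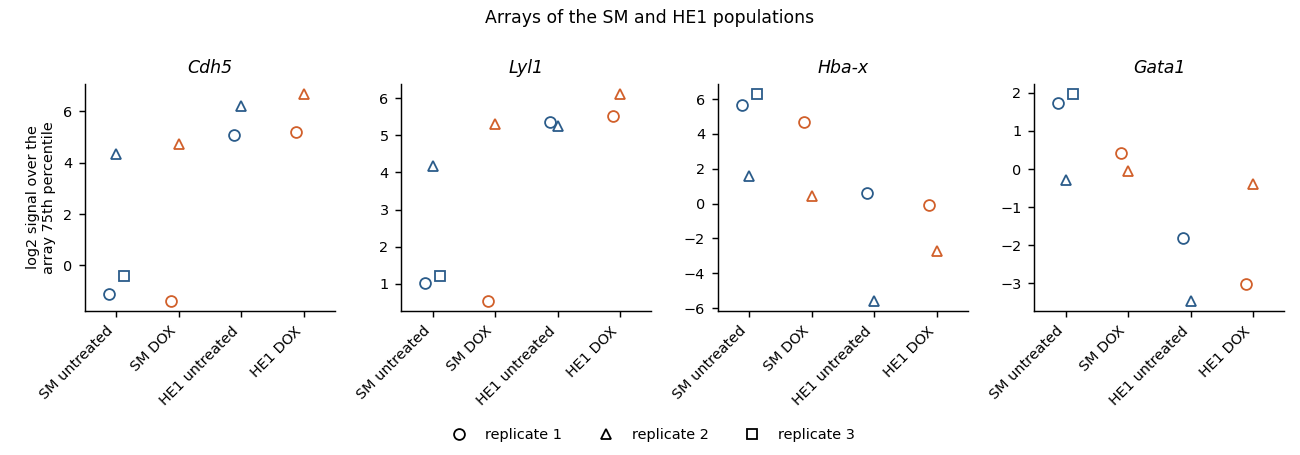
Log2 signal over the array's 75th percentile of Cdh5, Lyl1, Hba-x and Gata1 on each SM and HE1 array, untreated in blue and DOX in orange, with the replicate number as the shape of the point. Replicate 2 of SM cells carried Cdh5 at 4.34 and 4.74 and Lyl1 at 4.17 and 5.30, near the HE1 arrays, while the other SM arrays carried more Hba-x and Gata1.

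Of the 10 genes, 9 differed among the 7 untreated populations, and Gata2 did not pass the test. limma's F-test over the 7 groups, with at least 2-fold between the highest and the lowest mean, called 17.8% of all genes tested. The adjusted p was 3.86e-06 for Gfi1b, 8.29e-05 for Myb, 9.38e-05 for Lyl1, 0.000168 for Runx1 and 0.000229 for Gata1, and between 0.00421 and 0.0314 for Cbfa2t3, Lmo2, Gfi1 and Tal1. For Gata2 it was 0.553. In these bulk samples a lower level can be less RNA per cell or fewer cells with the gene, and the 2 cannot be told apart. The calls of Tal1 and Gfi1 were lost with the slide as a fixed block, at adjusted p of 0.0969 and 0.129, and on leaving out single arrays, where the adjusted p of Tal1 reached 0.0821 without untreated HP replicate 2 and that of Gfi1 0.111 without untreated FLK1+ 5h replicate 1. Without both SM replicate 2 arrays Gata2 was called as well, at an adjusted p of 0.00211.

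**Figure D2:**
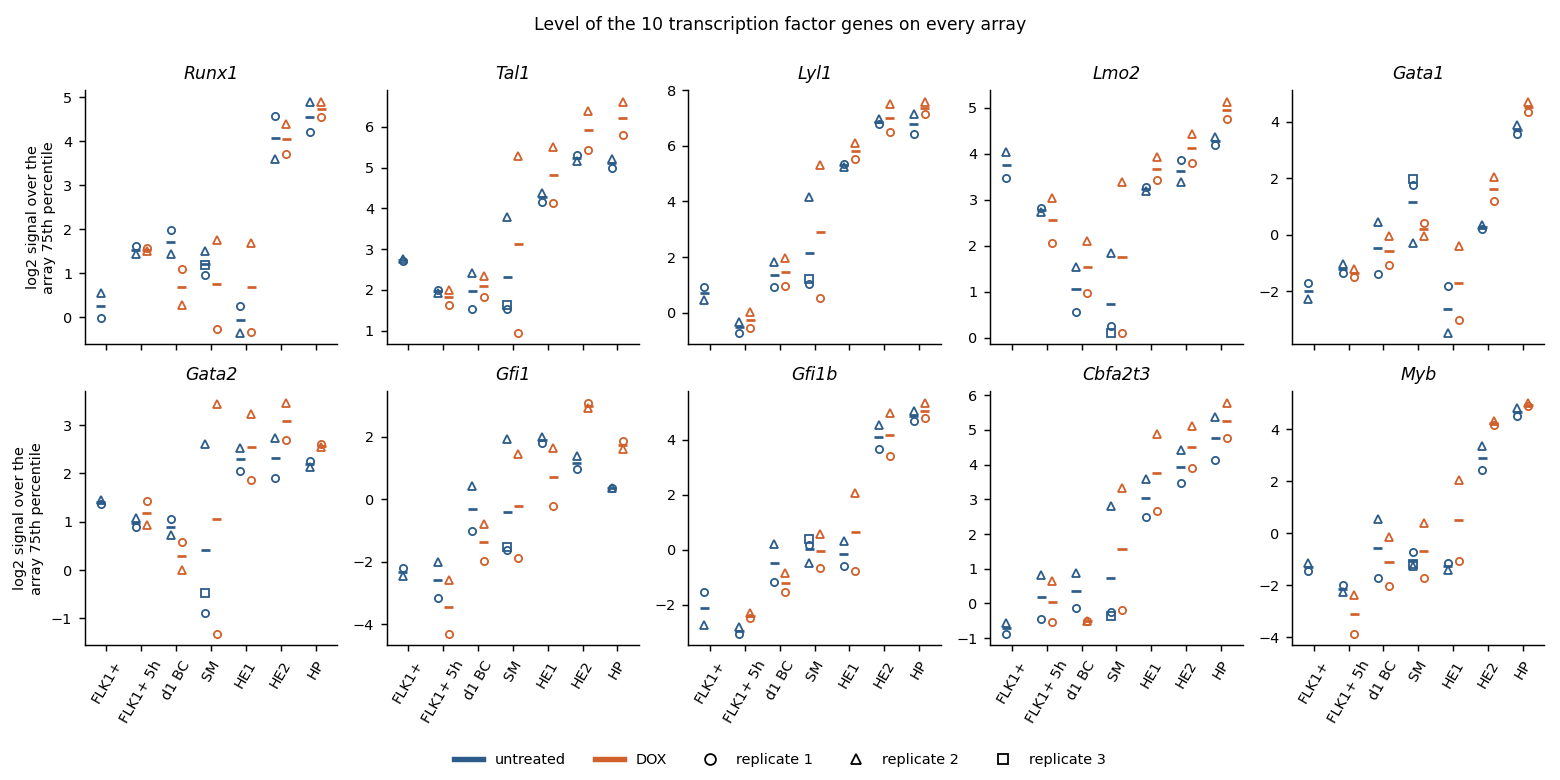
Log2 signal over the array's 75th percentile for each of the 10 genes on every array, by population, with untreated arrays in blue, DOX arrays in orange, bars at the group means and shapes for replicate numbers. Runx1, Gfi1b and Myb were low up to HE1 and high in HE2 and HP cells, whereas Tal1, Lyl1, Lmo2 and Cbfa2t3 were higher in HE1 than in d1 BC cells and Gata1 was highest in HP cells.

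Runx1, Gfi1b and Myb rose together between HE1 and HE2 cells, the step at which CD41 appears on the cell surface. Runx1 was at 0.25 and -0.35 on the untreated HE1 arrays and at 4.57 and 3.60 on the untreated HE2 arrays. Gfi1b was at -0.60 and 0.31 in HE1 and at 3.67 and 4.51 in HE2 cells. Myb was at -1.13 and -1.42 in HE1 and at 2.44 and 3.35 in HE2 cells. For each of the 3 genes, both HE2 arrays were thus far above both HE1 arrays. The fold change was 17.6 for Runx1 (log2 difference 4.14, SE 0.68, limma adjusted p = 0.00274), 18.9 for Gfi1b (4.24, SE 0.80, adjusted p = 0.00615) and 18.0 for Myb (4.17, SE 0.92, adjusted p = 0.0185). In this step 2.3% of genes tested were called and 0.516% were called higher, against 3 of the 10 genes, all higher.

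In value, the other 7 genes lay between -0.72 and 2.92, and none was called between HE1 and HE2 cells. Gata1 came closest, from -1.80 and -3.46 in HE1 to 0.22 and 0.36 in HE2 cells, a log2 difference of 2.92 (SE 0.85, limma adjusted p = 0.0884). It passed with the authors' processed values (2.82, adjusted p = 0.0279), after quantile normalization (3.66, 0.0352) and without both SM replicate 2 arrays (2.92, 0.0488). Lyl1 differed by 1.57, Tal1 by 0.96, Cbfa2t3 by 0.91, Lmo2 by 0.39, Gata2 by 0.03 and Gfi1 by -0.72. The median difference of the 10 genes was 1.27, against 0.04 over all genes tested. HE1 and HE2 arrays of one replicate number shared a slide. Within these slides Runx1 differed by 4.33 and 3.95, Gfi1b by 4.27 and 4.20, and Myb by 3.58 and 4.76, and with the slide as a fixed block the 3 calls held at adjusted p of 0.0016, 0.00294 and 0.0038. Fitted to the 4 HE1 and HE2 arrays alone, none of the 3 was called, at an adjusted p of 0.355 each, although their differences were the same. On leaving out 1 array the differences stayed between 3.65 and 4.62, and the call was lost for Runx1 without untreated HE2 replicate 1 (adjusted p = 0.0526), for Gfi1b without untreated HE1 replicate 1 or HE2 replicate 2 (0.122 and 0.0595), and for Myb without any 1 of the 4 arrays (0.0823 to 0.134). limma's array weights also ended the calls of Gfi1b and Myb (0.0599 and 0.134), and median scaling that of Myb (0.0533).

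Sequence just upstream of the genes called higher from HE1 to HE2 or HP cells is shown to place them in the genome. The member promoters that held a GATA or RUNX motif are shown too. RefSeq lists 14 promoters for 9 of the 10 genes on GRCm38.p6, and Lmo2 had no entry. The windows are the 250 bases before a transcription start, 5′ to 3′ on the strand of the gene, and capitals mark matches on either strand to a GATA word or a RUNX word. The GATA words searched were AGATAA, with its variant AGATAG, and also TGATAA, with its variant TGATAG. The RUNX words were TGTGGT, with its variant TGCGGT. They lie at chr2:28621983-28622232 on the minus strand for Gfi1b, chr10:21160985-21161234 on the minus strand for Myb, chr16:92826075-92826324 on the minus strand for the upstream of 2 Runx1 promoters, chrX:7967911-7968160 on the minus strand for Gata1, chr4:115056176-115056425 on the plus strand for the upstream of 2 Tal1 promoters, and chr8:122699110-122699359 on the minus strand for the upstream of 2 Cbfa2t3 promoters.
Gfi1b: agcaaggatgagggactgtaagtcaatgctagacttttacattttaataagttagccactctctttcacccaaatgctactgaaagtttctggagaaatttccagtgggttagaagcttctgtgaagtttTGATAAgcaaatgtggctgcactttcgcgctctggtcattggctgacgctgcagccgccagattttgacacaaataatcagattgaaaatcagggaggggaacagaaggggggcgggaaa
Myb: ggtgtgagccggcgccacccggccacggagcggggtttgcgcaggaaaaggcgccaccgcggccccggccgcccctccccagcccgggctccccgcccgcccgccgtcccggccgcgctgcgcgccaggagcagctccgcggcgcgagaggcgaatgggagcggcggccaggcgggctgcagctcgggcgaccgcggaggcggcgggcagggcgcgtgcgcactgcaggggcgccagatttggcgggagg
Runx1: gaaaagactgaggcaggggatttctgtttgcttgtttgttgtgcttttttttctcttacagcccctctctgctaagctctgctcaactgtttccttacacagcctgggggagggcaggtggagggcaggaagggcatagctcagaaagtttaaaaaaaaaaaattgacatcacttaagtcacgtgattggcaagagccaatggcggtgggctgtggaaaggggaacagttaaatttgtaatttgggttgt
Gata1: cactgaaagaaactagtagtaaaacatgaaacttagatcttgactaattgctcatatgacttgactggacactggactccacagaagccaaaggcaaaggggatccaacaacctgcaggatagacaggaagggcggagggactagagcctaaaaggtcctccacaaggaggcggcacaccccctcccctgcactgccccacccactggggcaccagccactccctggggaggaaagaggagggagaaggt
Tal1: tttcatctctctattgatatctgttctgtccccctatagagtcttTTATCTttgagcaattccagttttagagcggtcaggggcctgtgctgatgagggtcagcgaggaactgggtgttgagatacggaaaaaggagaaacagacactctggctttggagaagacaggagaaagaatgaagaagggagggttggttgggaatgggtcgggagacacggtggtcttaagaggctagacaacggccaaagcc
Cbfa2t3: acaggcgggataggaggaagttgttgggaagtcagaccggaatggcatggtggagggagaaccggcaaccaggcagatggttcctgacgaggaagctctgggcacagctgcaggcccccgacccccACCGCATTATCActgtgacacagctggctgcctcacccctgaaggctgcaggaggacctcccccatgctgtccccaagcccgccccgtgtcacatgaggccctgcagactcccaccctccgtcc

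GATA words were found in 3 of the 14 windows, those of Gfi1b, Tal1 and Cbfa2t3, and in 26.5% of the 32851 windows of the same length in the table. A RUNX word was found in 1 of the 14, that of Cbfa2t3, where it abuts the GATA word, and in 18.6% of all windows. The E-box CANNTG, which basic helix-loop-helix factors such as TAL1 and LYL1 bind, lay in 8 of the 14 and in 66.2% of all. The ETS core GGAA lay in 13 of the 14 and in 93.4% of all, and the TEAD word GGAATG, which contains it, in 5 of the 14 and in 12.6% of all. TGANTCA, the word of AP-1, was found in none of the 14 windows (0) and in 6.75% of all. These are matches of letters in a short window, and distal enhancers were not searched.

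Gata1, the red cell and megakaryocyte factor, was highest in HP cells. It was at 3.57 and 3.86 on the untreated HP arrays, against 0.22 and 0.36 in HE2 and -1.80 and -3.46 in HE1 cells, so that the 3 populations did not overlap. Between HE1 and HP cells it rose 81.3-fold (log2 difference 6.35, SE 0.85, limma adjusted p = 0.000191). Of this, the part between HE2 and HP cells was 3.43 (SE 0.85), whose adjusted p of 0.269 missed the threshold in a step where 1 of 25353 genes was called, or 0.00394%. With the authors' processed values the same difference was 3.38 at an adjusted p of 0.0357, and with normexp correction 3.41 at 0.00833.

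Between HE1 and HP cells, 4 of the 10 genes were called higher and none was called lower, and 8 had a higher mean in HP cells. HP cells carried Runx1 at 4.21 and 4.90, Gfi1b at 4.69 and 5.02, and Myb at 4.52 and 4.82. The log2 difference from HE1 was 5.95 for Myb (SE 0.92, limma adjusted p = 0.000641), 5.00 for Gfi1b (SE 0.80, adjusted p = 0.000862) and 4.61 for Runx1 (SE 0.68, adjusted p = 0.000451). Of all genes tested 4.2% were called in this step and 1.67% were called higher. Gfi1, the paralog of Gfi1b, ran the other way in value, from 1.81 and 1.98 in HE1 through 0.95 and 1.39 in HE2 to 0.36 and 0.37 in HP cells. The groups did not overlap, but the difference of -1.53 between HE1 and HP had a 95% interval from -3.83 to 0.76 and was not called (adjusted p = 0.623).

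Tal1, Lyl1, Lmo2 and Cbfa2t3, which code for members of the TAL1 complex, and Gfi1 and Gata2 had higher values in HE1 than in d1 BC cells. Lyl1 was at 0.93 and 1.81 on the untreated d1 BC arrays and at 5.36 and 5.24 in HE1 cells, and Tal1 at 1.52 and 2.42 in d1 BC and at 4.16 and 4.38 in HE1 cells. Lmo2 was at 0.56 and 1.54 in d1 BC and at 3.28 and 3.19 in HE1 cells, and Cbfa2t3 at -0.14 and 0.87 in d1 BC and at 2.49 and 3.58 in HE1 cells. Gfi1 was at -1.03 and 0.42 in d1 BC and at 1.81 and 1.98 in HE1 cells, and Gata2 at 1.05 and 0.72 in d1 BC and at 2.06 and 2.52 in HE1 cells. In these 6 genes both HE1 arrays lay above both d1 BC arrays, as they did in 30% of all genes tested. The log2 differences were 2.20 for Gfi1 and 1.40 for Gata2 (limma adjusted p = 0.316 and 0.536). For Lyl1, Tal1, Lmo2 and Cbfa2t3 they were 3.93, 2.30, 2.18 and 2.67, and none was called (limma adjusted p = 0.0595, 0.231, 0.165 and 0.223), in a step where 3.13% of genes were. Runx1 and Gata1 lay lower in HE1 than in d1 BC cells, by -1.76 and -2.17 (adjusted p = 0.189 and 0.195). Of the 10 genes, 6 had an unadjusted p under 0.05 in this step, against 17% of all genes.

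Leaving out both SM replicate 2 arrays, which entered this step only through the shared estimate of the spread, brought the calls of Lyl1 (adjusted p = 0.000224), Tal1 (0.0156) and Lmo2 (0.0202) at the same differences. The authors' processed values, quantile normalization, normexp correction and array weights also brought the call of Lyl1, at differences from 3.48 to 4.35. No slide held both d1 BC and HE1 arrays. With the slide as a fixed block, which links them through the SM arrays, the difference of Lyl1 was 0.73 (SE 0.98) and that of Tal1 -0.33 (SE 0.88). The linking arrays include both SM replicate 2 arrays, on which Lyl1 was at 4.17 and 5.30, against 0.54 to 1.20 on the other SM arrays. A block fit without them was not run, so the slide and this step could not be told apart with these arrays.

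Before the d1 BC stage no gene of the 10 was called. Between FLK1+ and FLK1+ 5h cells, where 2.85% of genes were called, Runx1 went from -0.02 and 0.55 to 1.63 and 1.45, a difference of 1.27 (SE 0.68, limma adjusted p = 0.398), and 7 of the other genes had a lower mean at 5 h. Between FLK1+ 5h and d1 BC cells, where 1.41% were called, Gfi1b went from -3.06 and -2.82 to -1.17 and 0.22 (difference 2.46, SE 0.80, adjusted p = 0.175) and Lmo2 from 2.83 and 2.73 to 0.56 and 1.54 (difference -1.73, SE 0.80, adjusted p = 0.447). In both genes the arrays of the 2 stages did not overlap. In FLK1+ cells Lmo2 was at 3.47 and 4.04 and Tal1 at 2.71 and 2.76. In the step from d1 BC to SM cells, where 0.247% of genes were called, the values of each of the 10 genes overlapped between the groups.

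HP and SM cells, the blood and the vascular product of the same culture, differed by the test in 7 of the 10 genes. All 10 genes had a higher mean in HP than in SM cells, and the 7 calls stood against 9.29% of all genes called and 3.09% called higher. Myb was at -0.71, -1.25 and -1.20 on the 3 untreated SM arrays and Gfi1b at 0.18, -0.47 and 0.39, both far below their HP values, with log2 differences of 5.72 (SE 0.84, limma adjusted p = 0.000178) and 4.82 (SE 0.73, adjusted p = 0.000224). Lyl1 was at 1.02, 4.17 and 1.20 in SM cells and at 6.41 and 7.14 in HP cells, a difference of 4.65 (SE 1.00, adjusted p = 0.00454). The high SM value is that of replicate 2, and Tal1 likewise was at 1.53, 3.79 and 1.63. Cbfa2t3 (4.03), Lmo2 (3.54), Runx1 (3.33) and Gata1 (2.57) were called too, with adjusted p from 0.00132 to 0.0418, and for Tal1 (2.79) it was 0.0573.

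Without both SM replicate 2 arrays Tal1 and Gata2 passed the test as well, at differences of 3.52 and 2.87 (adjusted p = 0.000248 and 0.00103), and Gata1 no longer did, at 1.86 (adjusted p = 0.17). Gata2 had been at -0.88 and -0.48 on SM replicates 1 and 3 and at 2.60 on replicate 2. Gata1 was at 1.74 and 1.97 on the former and at -0.28 on the latter. The call of Gata1 was also lost under median scaling (adjusted p = 0.0794), quantile normalization (0.0876) and without either HP array (0.187 and 0.269). Cbfa2t3 lost its call without either HP array (0.0559 and 0.192) or without SM replicate 1 or 3 (0.0638 and 0.0651), and Lyl1 lost it without HP replicate 2 (0.0683). Fitted to the arrays of the 2 groups alone, Lyl1 (0.0661), Lmo2 (0.0506), Gata1 (0.184) and Cbfa2t3 (0.112) were not called, at the same differences.

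**Figure D3:**
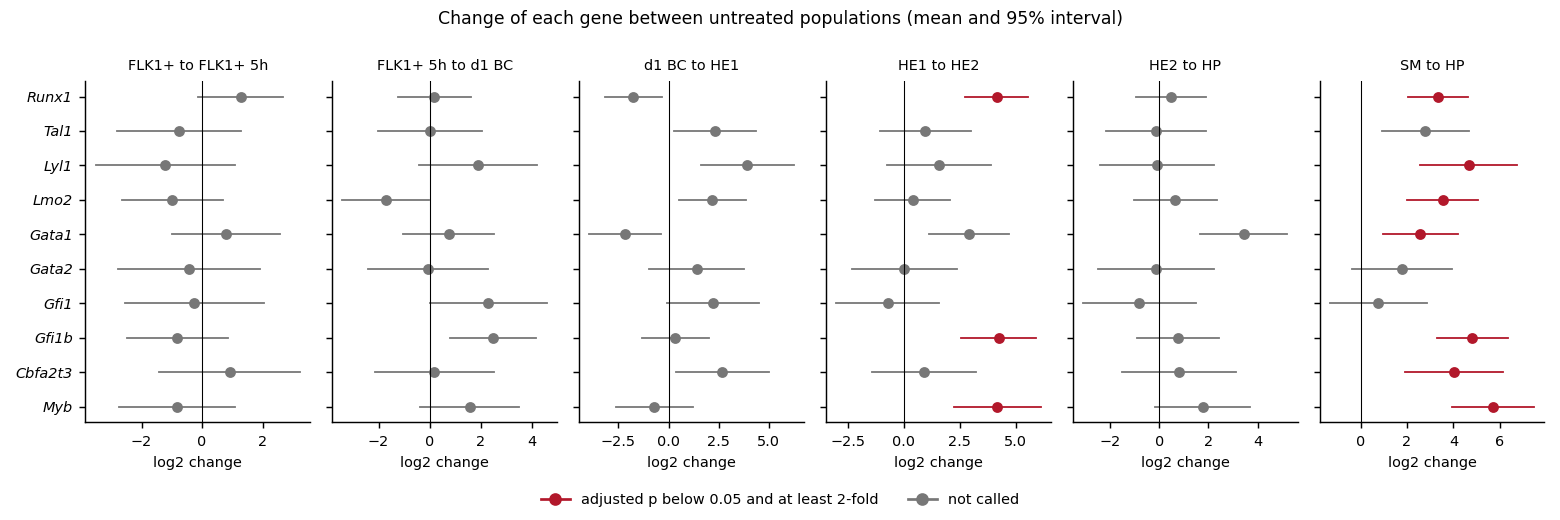
Log2 difference of each gene between successive untreated populations, and between SM and HP cells, with the 95% interval from the limma fit as bars, red where called and grey where not. Calls among the 5 successive steps shown were made from HE1 to HE2 only, for Runx1, Gfi1b and Myb, and 7 of the 10 genes were called between SM and HP cells.

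Runx1 and Cbfa2t3 had more than 1 probe. The second Runx1 probe, of another RefSeq transcript, was at 1.58 and 1.96 in d1 BC, -0.99 and -1.64 in HE1, 1.74 and 3.16 in HE2 and 3.90 and 3.06 in HP cells. Both probes were thus lowest in HE1 and highest in HE2 and HP cells among the sorted populations. Fitted on its own among all probes, it was called between HE1 and HE2 (3.76, SE 0.62, limma adjusted p = 0.00392) and also as a fall of Runx1 between d1 BC and HE1 (-3.08, SE 0.62, adjusted p = 0.011), where the first probe gave -1.76. Another 2 probes of Cbfa2t3, both of a transcript other than that of the main probe, were dim, with values between -6.08 and -0.35. One of them differed by 1.83 between SM and HP cells (adjusted p = 0.0932) and the other by 0.19 (adjusted p = 0.959), against 4.03 for the main probe.

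Over the 13 group means, the genes whose pattern lay nearest to each member were found among 16381 genes. The nearest to Gfi1b was Dapp1, a signalling adaptor of B cells, with Pearson r = 0.996, and Dapp1 (r = 0.978) was also among the 3 nearest to Myb. For Runx1 it was Ikzf1, the Ikaros factor (r = 0.958), for Lyl1 Arhgap25 (0.995), for Tal1 Pi4kb (0.995), for Cbfa2t3 Gvin1 (0.992), for Lmo2 Dusp2 (0.971), for Gata2 Rnf125 (0.972), for Gfi1 Hapln1 (0.959), for Myb AI467606 (0.984) and for Gata1 Slc6a13 (0.944). Among the members themselves the closest pairs were Tal1 with Lyl1 (r = 0.97) and Gfi1b with Myb (r = 0.97), and the least alike were Gata1 with Gata2 (r = 0.30). These values describe 13 means, 2 of which (SM with and without DOX) mix unlike arrays, and 6 populations enter with and without DOX.

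Of 17 genes for proteins that bind the members, among them Cbfb, Ldb1 and Tcf3, 1 was called in the untreated steps. It was called lower from HE1 to HE2, from HE1 to HP and from SM to HP, and was Runx1t1, the paralog of Cbfa2t3 and the ETO gene of the leukemic RUNX1 fusion, which fell from a mean of 1.86 in HE1 to -0.89 in HE2 (difference -2.75, SE 0.68, limma adjusted p = 0.0374) and further to -1.60 in HP cells, a difference from HE1 of -3.46 (SE 0.68, adjusted p = 0.00516). Its mean in SM cells was 2.32. The median difference of the partners between HE1 and HE2 was -0.16 and that of the 10 genes 1.27.

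Of 20 other blood transcription factors, 3 were called higher and 0 lower from HE1 to HE2, 6 higher and 1 lower from HE1 to HP, and 7 higher and 2 lower from SM to HP. Nfe2, the megakaryocyte and erythroid factor, rose from a mean of 1.30 in HE1 to 5.19 in HE2 (difference 3.89, SE 0.69, limma adjusted p = 0.00484) and 6.13 in HP cells. Spi1, which encodes the myeloid factor PU.1, was not well above background on either untreated HE1 array and was at least 16.6-fold higher in HE2 and at least 45.7-fold higher in HP cells, and Ikzf1 was at least 18.9-fold and 46.3-fold higher. A bound here sets the bright group against the higher of the dim probe's own signal and the lowest signal well above background on each array. Hoxb4 was called lower in HP than in HE1 cells (-2.52, SE 0.56, adjusted p = 0.0121), and Hoxb4 and Gata3 were called lower in HP than in SM cells (-1.95 and -2.01). Among 20 genes that the members are known to regulate, which share Nfe2, Spi1 and Klf1 with the former list, 3 were called higher from HE1 to HE2, 3 higher and 1 lower from HE1 to HP, and 10 higher from SM to HP. The lower one was Vwf, a gene of endothelium and megakaryocytes (-3.52, SE 0.84, adjusted p = 0.0188). Kit, the receptor on which the HP gate was set, rose by 5.24 from SM to HP cells (SE 0.68, limma adjusted p = 6.82e-05).

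DOX changed none of the 10 genes by the test, in none of the 6 populations and in neither of the tests that pool populations. Few genes of any kind were called. Their share of those tested was 0.0042% at FLK1+ 5h, 0.00839% in SM cells and 0.0318% in HP cells, and it was 0% in d1 BC cells, 0% in HE1 cells and 0% in HE2 cells, so the count of 0 among 10 genes is near the background. At an unadjusted p under 0.05 it was 0 of 60 as well, against 8.88% of all genes in HE2 cells, 5.02% at FLK1+ 5h, 3.48% in HP cells, 2.67% in SM cells, 1.51% in d1 BC cells and 1.14% in HE1 cells. The F-test of a DOX effect in any population called 0.0353% of genes and no member, and the mean DOX effect over SM, HE1, HE2 and HP cells called 0.31% and no member. The intervals were wide. For Runx1 in HE2 cells the difference was -0.03 with a 95% interval from -1.46 to 1.39, so that a 2-fold change in either direction lay within it.

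With DOX all 10 genes had a higher mean in HP cells, and in 6 of them both DOX arrays lay above both untreated arrays, against 25.6% of all genes, with 12.5% of all genes below and none of the 10. Tal1 was at 5.00 and 5.22 without and 5.80 and 6.62 with DOX, Gata1 at 3.57 and 3.86 without and 4.33 and 4.70 with DOX, and Gfi1 at 0.36 and 0.37 without and 1.85 and 1.61 with DOX. Lmo2, Gata2 and Myb were the other 3 genes of this kind. The median difference of the 10 genes was 0.55 when 68% of all genes tested were higher with a median of 0.25, and under median scaling, where the median of all genes was -0.05, it was 0.25 and 7 of the 10 genes were higher. Within the slides 10 of 10 and 9 of 10 genes were higher, and without DOX replicate 1 the median was 0.83 with 10 of 10 higher. Marker genes of several lineages differed with DOX in the same cells. All 8 myeloid markers were well above background on all 4 HP arrays, with a median of 2.36 and 2.03 without and 0.07 and 0.00 with DOX, and Spi1 among them was at 1.74 and 0.86 without and -1.84 and -1.94 with DOX. Their summed level was 158 and 211 without and 231 and 214 with DOX. The median of the 8 erythroid markers was -0.37 and -0.24 without and 0.90 and 0.41 with DOX, and 7 or 8 of them were well above background on each array, with sums of 155 and 269 without and 252 and 215 with DOX. The median of 7 megakaryocyte markers, 6 of them well above background on each array, was 0.43 and 0.67 without and 1.60 and 1.27 with DOX, and their sum 38.7 and 43.8 without and 45.2 and 46.6 with DOX. The sum of the endothelial markers was 49 and 60.6 without and 65.2 and 79.4 with DOX, while their median overlapped, at 0.68 and 0.45 without and 0.22 and 1.09 with DOX. The part of these markers in the values of the 10 genes was not tested.

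In HE2 cells 9 of the 10 genes had a higher mean with DOX, and Tal1, Gata1, Gfi1 and Myb had both DOX arrays above both untreated arrays, against 20.3% of all genes above and 14.5% below. Gfi1 was at 0.95 and 1.39 without and 3.08 and 2.91 with DOX, a difference of 1.83 (SE 1.09, limma adjusted p = 0.548). Myb was at 2.44 and 3.35 without and 4.17 and 4.32 with DOX, and Gata1 at 0.22 and 0.36 without and 1.20 and 2.04 with DOX. The median of the 10 genes was 0.63 against 0.17 for all genes, and this depended on the scaling. It was 0.09 with the authors' processed values and 0.15 after quantile normalization, with 6 of the 10 genes higher in both, and 1.09 under median scaling, which put the median of all genes at 0.63. Without DOX replicate 2, on which Itga2b and Tek were low, it was 0.19 with 6 of 10 genes higher. Within the slides the median was 0.30 and 0.89, with 6 of 10 and 10 of 10 genes higher. Markers differed here too. The sum of the 7 megakaryocyte markers, 6 of them well above background on each array, was 18.5 and 37.4 without and 41.8 and 63.9 with DOX. The median of the myeloid markers was 1.62 and 1.42 without DOX and -0.00 and -1.58 with it. On DOX replicate 2, 5 of the 8 were well above background. Their sum was 231 and 112 without and 109 and 166 with DOX. The sum of the 10 endothelial markers was 87.6 and 123 without and 134 and 179 with DOX, and Sox7 among them was at 0.29 and 1.62 without and 2.98 and 3.48 with DOX. Their part in the values of the 10 genes was not tested.

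HE1 cells differed between replicates. The 75th percentile was 335.9 on DOX replicate 2, against 124.5 to 138.4 on the other HE1 arrays. The part of this brightness in the values was not tested. Of the 10 genes 9 had a higher mean with DOX, and Lyl1, Lmo2 and Myb had both DOX arrays above and Gfi1 both below the untreated arrays, against 8.65% and 8.38% of all genes. Myb was at -1.13 and -1.42 without and at -1.06 and 2.04 with DOX, and Gfi1b at -0.60 and 0.31 without and at -0.76 and 2.06 with DOX. The high value was replicate 2 in both genes, and Runx1 was likewise at -0.34 and 1.70 with DOX. Within the slide of replicate 1 the median difference was -0.10 with 4 of 10 genes higher, and within that of replicate 2 it was 1.21 with 9 of 10 higher. Without DOX replicate 2 the median was -0.33 with 3 of 10 higher. Of the 8 myeloid markers 4 were well above background on that array, against 4 to 6 on the other HE1 arrays. Their median was -2.74, against -1.90 to -1.63 on the others, and their sum 120, against 118 to 195, with Mpo higher than on the others at 2.88 and Spi1 not well above background on any of the 4. Itga2b and Ptprc were lower there than on the other HE1 arrays, at -0.82 and -3.96. The sums of other lists separated the groups. The sum of the 7 feeder fibroblast markers, 6 or 7 of them well above background on each array, was 82.6 and 45.9 without and 40.4 and 22.8 with DOX. The median of the feeder markers overlapped and ran the other way within both slides, at 0.93 and -1.67 without and 1.64 and -0.92 with DOX. The sum of the 7 megakaryocyte markers, 4 to 6 of them well above background, was 4.35 and 4.59 without and 6.1 and 8 with DOX. The part of other cells in the values of the 10 genes was not tested.

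Gfi1 had differences of opposite sign in HE1 and in HE2 or HP cells, and the size of the HE1 value rested on 1 array. In HE1 cells it was at 1.81 and 1.98 without and -0.21 and 1.63 with DOX (difference -1.18, SE 1.09), while in HE2 and HP cells it was higher by 1.83 and 1.37. The low value in HE1 cells was DOX replicate 1. Within its slide the difference was -2.01, and within the slide of replicate 2 it was -0.35, where Gfi1 differed by 1.52 in HE2 and 1.24 in HP cells. The interaction values that follow include that array. The DOX effect was 3.01 larger in HE2 than in HE1 cells (SE 1.55, 95% interval -0.23 to 6.25, unadjusted p = 0.067 in limma, adjusted p = 1) and 2.55 larger in HP than in HE1 cells (SE 1.55, adjusted p = 1). With the slide as a fixed block the unadjusted p-values from limma were 0.0126 and 0.0293 for Gfi1, and the adjusted p 0.998 and 0.961. Without DOX, Gfi1 was lower on both HE2 arrays than on both HE1 arrays, and with DOX it was higher on both. The step without DOX was not called and the step with DOX was not tested on its own. None of the 40 interaction values of the 10 genes was called, in contrasts where 0% of all genes were called from SM to HE1, 0% from HE1 to HE2, 0% from HE2 to HP and 0% from HE1 to HP. At an unadjusted p under 0.05 the number of members was 0 too, beside 0.48%, 1.21%, 3.88% and 1.39% of all genes in the same order, so that 0 of 40 is near the background.

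In d1 BC cells 7 of the 10 genes had a lower mean with DOX, and Runx1, Gata2 and Cbfa2t3 were lower on each DOX array than on each untreated one, against 9.61% of all genes below and 18.9% above, and the median was -0.55 when that of all genes was 0.13. Runx1 was at 1.99 and 1.43 without and 1.10 and 0.28 with DOX, a difference of -1.02 (SE 0.68, 95% interval -2.44 to 0.40, limma adjusted p = 1). The second Runx1 probe was at 1.58 and 1.96 without and at 0.44 and 0.57 with DOX. It lay lower on both DOX arrays too, by a mean of -1.27 (SE 0.62, adjusted p = 1). The median stayed negative under each scaling tried, from -0.60 under median scaling to -0.32 with normexp correction, but not on leaving out single arrays. It was 0.25 with 5 of 10 genes higher without untreated replicate 2, and -0.00 without DOX replicate 1. Tal1, Lyl1 and Lmo2 had higher means with DOX, by 0.12, 0.09 and 0.49. Untreated and DOX arrays of one replicate number shared a slide, and within the slides the median was -0.34 and -0.71. Gfi1 (-0.96 and -1.20), Gfi1b (-0.37 and -1.08) and Myb (-0.31 and -0.71) were lower with DOX within both slides, as were Runx1, Gata2 and Cbfa2t3. Markers of other cells differed with DOX in this complete culture. All 7 feeder fibroblast markers were well above background on its 4 arrays, with sums of 31 and 34.2 without and 15.9 and 7.78 with DOX. The median of the 8 smooth muscle markers, all well above background, was 5.37 and 5.04 without and 4.62 on both arrays with DOX, while their sums overlapped. The sum of the 10 endothelial markers, 9 or 10 of them well above background on each array, was 23.7 and 15.7 without and 32.6 and 26.6 with DOX. Their median hardly differed, at -0.67 and -0.39 without and -0.67 and -0.42 with DOX. Summed over the 8 erythroid markers, 6 or 7 of them well above background, the level was lower with DOX within both slides, at 21.3 and 82.6 without and 10.9 and 46.4 with DOX for replicates 1 and 2. Untreated replicate 2 stood apart, with that erythroid sum of 82.6 and a megakaryocyte sum of 39.9 against 0.469 to 0.862 on the other d1 BC arrays. Only 3 of the 7 megakaryocyte markers were well above background there, and their median was -6.15, against -5.41 to -3.70 on the other d1 BC arrays. Untreated replicate 2 also had the highest d1 BC values of Gata1 (0.46), Gfi1 (0.42), Gfi1b (0.22) and Myb (0.54). The part of these markers in the values of the 10 genes was not tested.

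At FLK1+ 5h the median difference of the 10 genes was -0.15 beside -0.04 over all genes, with Gfi1b above on both DOX arrays and Myb below, against 18.6% and 16.4% of all genes. Only replicate 2 had both groups on one slide, where the median was -0.02 beside 0.03 over all genes and 5 of 10 genes were higher, and without DOX replicate 1 it was 0.02. It turned to 0.13 with the slide as a fixed block and was -0.79 under median scaling, which moved the median of all genes to -0.68. Runx1 was at 1.63 and 1.45 without and at 1.57 and 1.51 with DOX, a difference of 0.00 with a 95% interval from -1.42 to 1.43.

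In SM cells the DOX differences followed the replicates. None of the 10 genes separated the groups in either direction, against 4.37% of all genes above and 6.14% below. The median difference was 0.51 over all arrays, 0.94 within the slide of replicate 2 with 9 of 10 genes higher, and -0.53 within the slide of replicate 1 with 1 of 10 higher. Without both replicate 2 arrays it was -0.64. Lyl1, for example, was at 1.02, 4.17 and 1.20 without and at 0.54 and 5.30 with DOX. The median of the 8 smooth muscle markers, all well above background on each array, was 3.69, 3.87 and 4.10 without and 2.53 and 3.48 with DOX, while their sums overlapped. For the 7 feeder fibroblast markers, also all well above background, the sum was 131, 157 and 198 without and 104 and 77.4 with DOX. The median of the feeder markers was 2.99, 0.51 and 2.51 without and 3.96 and 1.06 with DOX. It was thus higher with DOX within the slides of replicates 1 and 2. The part of these markers in the values of the 10 genes was not tested.

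Averaged over the 4 sorted populations, all 10 genes had a higher mean with DOX, as did 55.3% of all genes. The median was 0.54 against 0.07, and the largest value was that of Myb, at 0.94 (SE 0.45, limma adjusted p = 0.433). The HE1 part of the Myb value rested on DOX replicate 2, with a difference of 3.46 within its slide and 0.08 within that of replicate 1. Tal1 was higher by 0.78 (SE 0.48), Lmo2 and Cbfa2t3 by 0.66 each, and Runx1 by 0.10 (SE 0.33, 95% interval -0.60 to 0.80). The 10 genes are correlated with each other and the 4 populations hold the arrays described above, so the shared sign is not 10 separate observations. With quantile normalization or the authors' processed values 9 of the 10 genes were higher, with medians of 0.37 and 0.32, and without the SM replicate 2 arrays 9 were, with a median of 0.40. With the slide as a fixed block the median was 0.58 and none was called. All these averages include HE1 DOX replicate 2. In HE1 cells the median was 1.21 within its slide and -0.10 within that of replicate 1, with 9 and 4 of the 10 genes higher.

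**Figure D4:**
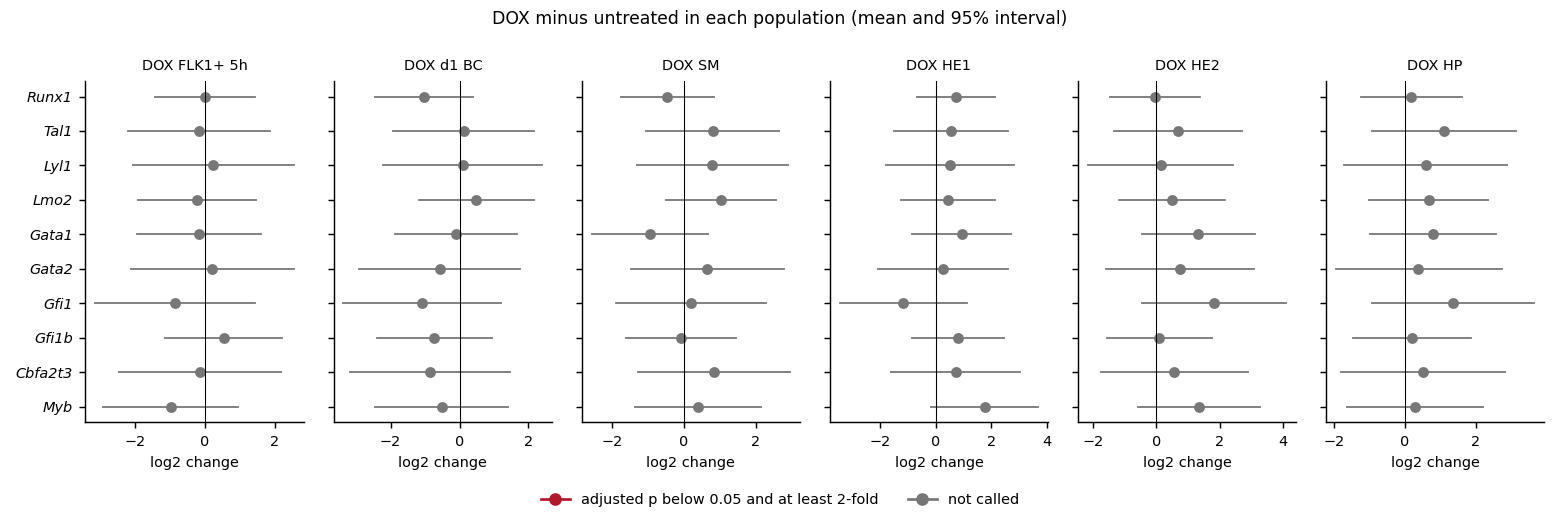
Log2 difference of DOX minus untreated for each gene in each population, with the 95% interval from the limma fit as bars. No gene was called in any population, and the intervals of all 60 values included 0.

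**Figure D5:**
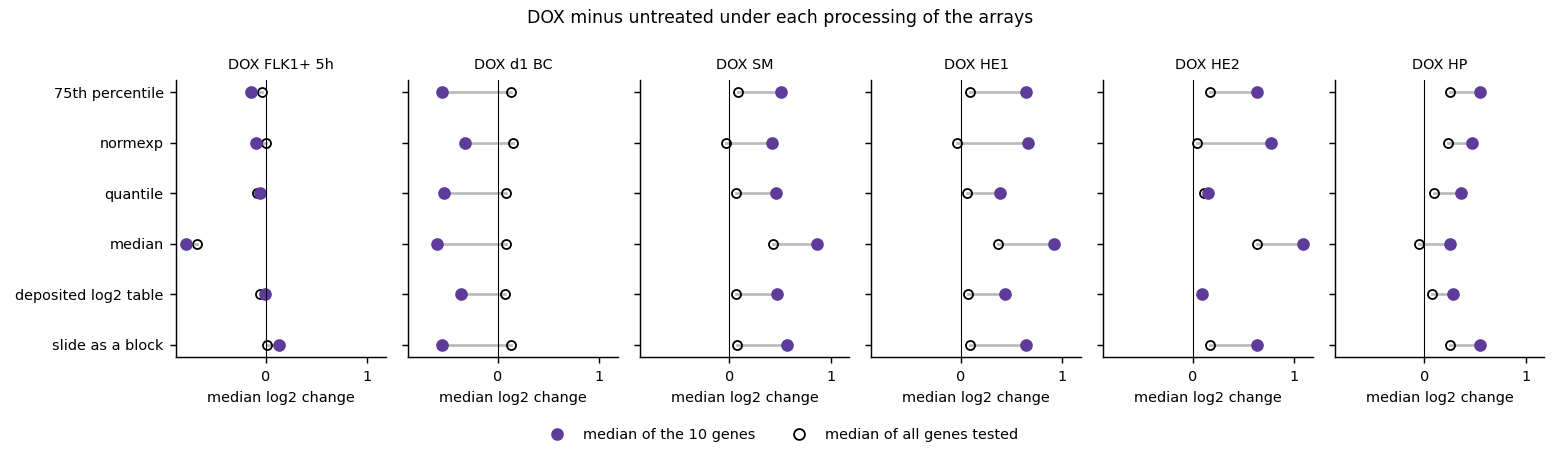
Median DOX minus untreated difference (log2) of the 10 genes, as filled points, and of all genes tested, as open points, under 6 ways of processing the arrays. In d1 BC cells the 10 genes lay below all genes under each of them, and in HE2 cells their distance from all genes vanished with quantile normalization and with the deposited log2 table.

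Genes of the 3 other lists gave no calls with DOX either. Of the 17 partner genes, the 20 other blood transcription factors and the 20 target genes, 0 were called in each of the 6 populations. The partner genes had medians near those of the 10 genes in some populations. Their median DOX difference was 0.71 in HE2 cells with 15 of 17 higher, beside 0.63 for the 10 genes, and 0.44 over the 4 sorted populations with 13 of 17 higher, beside 0.54. In HP cells it was 0.05. The median DOX difference of the target genes was -0.84 in SM and 0.47 in HP cells, that of the other transcription factors 0.04 and 0.18, and that of the 10 genes 0.51 and 0.55. In SM cells the target genes include the globins that differed between replicates.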

How the data were processed

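RNA was hybridised to 27 one-colour Agilent mouse arrays of 13 groups. The deposited scanner files give intensity values that Feature Extraction (10.7.3.1 per the file headers, 10.7.1.1 per the submitters' processing notes) had corrected for background but not scaled between arrays. The authors also deposited a table of log2 values, made with limma per the submitters' processing notes and with column medians between 5.98 and 6.00, which served as an alternative. Its background correction and centring stay unknown here.

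The log2 of the processed intensity minus the 75th percentile of the 55681 probes other than controls was taken on each array. Probes without a gene symbol stayed as transcripts, and the brightest probe of a gene was used. A gene entered a test if all arrays of 1 or more of the groups compared had it well above background. limma 3.58.1 in R 4.3.3 (lmFit, eBayes) was fitted with 13 group means, with 14 residual and 4.41 prior degrees of freedom, and gave 21 comparisons or F-tests, with Benjamini-Hochberg adjustment over all genes tested in each. The procedure was tested on simulated data. The number of arrays limits the precision. The alternatives were other background correction and scaling, the deposited log2 table, filters, probe rules, replicate, slide and scan day blocks, variance models, array weights, the groups compared alone, thresholds and each array left out. Leaving out both SM replicate 2 arrays was added after seeing the data.

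The 10 genes and the lists were chosen with earlier results of these data known. Each of the 10 genes is named, with at most 4 called genes of each other list per comparison and up to 3 nearest genes. Promoter sequences came from RefSeq (GRCm38.p6), matched by symbol, and no deposited coordinates were used. Python 3.11.15 and matplotlib 3.10.9 drew the plots.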

Additional observations from a re-analysis of the deposited data

Results flagged for a closer look

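For Gata2 and Myb, every DOX array lay on one side of the untreated arrays in one population and on the opposite side in another, in 4 pairs of populations, and the difference between the populations was not tested. Gata2 had a DOX difference of -0.58 in d1 BC and 0.38 in HP cells. Myb had -0.98 at FLK1+ 5h, against differences of 1.77 for HE1, 1.35 for HE2 and 0.28 for HP cells, and the HE1 value rested on DOX replicate 2, at 2.04 beside -1.06 for replicate 1. The value at FLK1+ 5h rested on DOX replicate 1, at -3.87 beside -2.37 for replicate 2, when the lower untreated array was at -2.27. On the only slide that held both groups it was -0.09, and with the slide as a fixed block it turned to 0.09. So in the 3 pairs with Myb the size of the FLK1+ 5h value rested on DOX replicate 1. Replicate 2 still lay below both untreated arrays. None of these DOX differences was called by limma after Benjamini-Hochberg adjustment.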

How the results depend on the processing

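The number of calls among the 10 genes in the 8 untreated steps was 14. It was 7 when only the groups compared entered the fit and 25 at an unadjusted p, and between 11 and 16 on leaving out 1 array. In the F-test over the untreated course 9 genes were called, and between 7 and 9 on leaving out 1 array. For DOX, by population, averaged over the 4 sorted populations, in any population and as a difference between steps, the count was 0, and it was 0 under each alternative run and with each array left out. No called value changed sign under the alternatives run. With the replicate number as a block the counts were 16 for the steps, 9 for the course and 0 for DOX. The labels do not say that a number marks a shared culture, and the correlation of replicate differences between untreated and DOX arrays was 0.03 at FLK1+ 5h and between 0.27 and 0.72 in the other 5 populations, whose untreated and DOX arrays of one number shared a slide. As 1 population lay under 0.1, the numbers were not taken as pairs. In the block fit Lyl1 and Cbfa2t3 passed between d1 BC and HE1 (adjusted p = 0.0273 and 0.0437). Arrays of the sorted HE and HP populations with the same number also shared a slide. The cause of the differences between settings was not tested. With 2 arrays a group, the 95% interval of Runx1 at FLK1+ 5h, for example, ran from -1.42 to 1.43, and a 2-fold difference within it was not detectable.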
